A study of Mus musculus with 8 samples.

Results

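The inhibitors of cyclin-dependent kinases and the D cyclins, the genes that set the pace of the G1 phase of the cell cycle, were examined in the palatal shelves of mouse embryos at embryonic day 14.5. The set holds 10 genes, namely the INK4 inhibitors Cdkn2a, Cdkn2b, Cdkn2c and Cdkn2d, the CIP/KIP inhibitors Cdkn1a, Cdkn1b and Cdkn1c, and the D cyclins Ccnd1, Ccnd2 and Ccnd3. All probe sets annotated with exactly 1 of these symbols were taken, which gave 22 of the 45037 probe sets of the array. The set was chosen on the signal of Cdkn2b, which had been seen to be higher in the mutant on these same arrays, and its other genes were added as relatives of Cdkn2b. The values of Cdkn2b are therefore a description and carry no test, and the question was whether the other 9 genes moved with it. The shelves of 4 R26Pax3/Pax3 samples and 4 wild type samples were compared, all described as littermates of a C57BL/6 and SV129 cross. Which samples share a litter is not given. In the R26Pax3 allele the Rosa26 locus carries Pax3, which encodes a transcription factor of neural crest and muscle precursors. The labels name neither a driver of the allele nor the cells that expressed it, and they do not say how many embryos a sample holds, so p-values speak only of how far these samples spread. The mutant replicates are numbered 1, 3, 4 and 7 and the wild type replicates 2, 6, 8 and 11.

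In G1 the D cyclins bind the kinases CDK4 and CDK6, and the complexes phosphorylate the retinoblastoma protein and its relatives, which frees E2F transcription factors to switch on the genes of DNA replication. The INK4 proteins bind CDK4 and CDK6 directly and keep the D cyclins from activating them, whereas the CIP/KIP proteins bind a wider range of cyclin and kinase complexes. CDKN2B is a known target of TGF-beta in human keratinocytes, Cdkn1a of p53, and mice without Cdkn1c are born with cleft palate.

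Cdkn2b and Cdkn2a lie side by side on chromosome 4, and their start regions are shown because 1 of these neighbours gave a signal here and the other did not. Each line gives the 250 bases before an annotated start in RefSeq (GRCm38.p6), all on the minus strand. The Cdkn2b window is chr4:89311033-89311282, that of the upstream Cdkn2a start, from which the Arf transcript begins, is chr4:89294620-89294869, and that of the downstream Cdkn2a start, from which the Ink4a transcript begins, is chr4:89282193-89282442. The window of Cdkn2d, the other INK4 gene whose genotypes did not overlap, is chr9:21291210-21291459. Of all probe sets tested, 2.73% did not overlap, so this trait of Cdkn2d is no result and links it in no way to Cdkn2b. Windows of Cdkn2c are not shown. Capitals mark the GC box GGGCGG and the Smad box CAGAC, read on both strands.
Cdkn2b: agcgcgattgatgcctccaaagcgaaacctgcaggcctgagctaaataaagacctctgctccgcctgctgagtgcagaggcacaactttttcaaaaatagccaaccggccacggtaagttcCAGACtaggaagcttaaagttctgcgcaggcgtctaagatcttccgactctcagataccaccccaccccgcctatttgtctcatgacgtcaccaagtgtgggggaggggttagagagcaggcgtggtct
Cdkn2a upstream start: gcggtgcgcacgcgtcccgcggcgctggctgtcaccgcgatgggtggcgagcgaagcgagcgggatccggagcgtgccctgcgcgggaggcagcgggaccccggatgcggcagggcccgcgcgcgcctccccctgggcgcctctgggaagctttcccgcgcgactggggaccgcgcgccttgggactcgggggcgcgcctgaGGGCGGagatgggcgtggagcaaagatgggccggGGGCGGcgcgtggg
Cdkn2a downstream start: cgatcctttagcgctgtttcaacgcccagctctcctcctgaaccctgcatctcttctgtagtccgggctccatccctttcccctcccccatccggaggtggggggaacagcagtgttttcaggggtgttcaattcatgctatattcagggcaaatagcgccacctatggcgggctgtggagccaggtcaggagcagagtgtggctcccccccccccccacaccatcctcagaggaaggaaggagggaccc
Cdkn2d: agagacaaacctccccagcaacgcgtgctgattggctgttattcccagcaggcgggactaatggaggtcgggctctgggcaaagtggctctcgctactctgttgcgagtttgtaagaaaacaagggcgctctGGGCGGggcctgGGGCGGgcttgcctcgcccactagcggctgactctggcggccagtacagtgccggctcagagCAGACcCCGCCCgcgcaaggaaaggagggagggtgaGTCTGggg

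The 4 windows differ in composition. GC content was 53.6% in the Cdkn2b window, 78.4% in the upstream Cdkn2a window and 63.6% in the Cdkn2d window, against a median of 52.4% over 32851 windows of the same length. That of the downstream Cdkn2a window lay between the Cdkn2b and Cdkn2d values. The Cdkn2b window held 1 CAGAC, starting at position -129, and no GGGCGG, while the upstream Cdkn2a window held 2 GGGCGG and the Cdkn2d window 3 GGGCGG and 2 CAGAC, none overlapping another. The downstream Cdkn2a window held neither. Over all windows, 42.2% held CAGAC and 32.7% held GGGCGG. Motifs that Pax proteins are known to bind were searched too, on both strands. The Cdkn2b window held no homeodomain core ATTA (54.9% of all windows) and no paired domain core GTCACG (6.93%). It also held no E-box CACGTG (6.02%), E2F site TTTCGCGC (0.256%), CCAAT box (33.8%) or TATAAA (12.4%). Such matches describe letters in these windows and are not binding sites, and their absence says nothing about a factor. The RefSeq table gave windows for 7 of the 10 genes, without Cdkn1c, Ccnd1 and Ccnd2.

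The values are linear MAS5 signal intensities from Affymetrix arrays, on which several short probes form a probe set, and array medians lay between 43.5 and 44.9. Each fold change is the mutant mean minus the wild type mean of log2(signal + 16), which understates the change of dim probe sets, and tests ran in limma with Benjamini-Hochberg adjustment over the 27021 probe sets above the 40th percentile of mean signal. At an adjusted p under 0.05 limma called 4 probe sets, 0.0148% of those tested. The brightest Pax3 probe set read 619 ± 88.8 in mutant and 162 ± 14.6 in wild type shelves (SD, n = 4 each), with no overlap. The markers of palatal mesenchyme were present, since none of 12, such as Osr2, Shox2, Tbx22 and Msx1, lay below the array medians on all 8 arrays. In whole shelves, fewer cells of a type and less RNA per cell cannot be told apart.

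Cdkn2b, which encodes the INK4 inhibitor known as p15, was higher in every mutant shelf. Its probe set 1449152_at read 94.1, 74.2, 92.3 and 83.1 in mutant replicates 1, 3, 4 and 7, against 38.1, 45.4, 43.7 and 49.2 in wild type replicates 2, 6, 8 and 11. The lowest mutant value was thus well above the highest wild type value. The means were 85.9 ± 9.18 and 44.1 ± 4.61 (SD, n = 4 each), so that the mutant signal was 1.95 times the wild type signal, and the log2 fold change was 0.76. The wild type level was dim, with 2 of the 4 wild type arrays reading below the median of all probe sets on their own array and no mutant array doing so. The ratio therefore rests on wild type signals near background, and the log2 fold change was 0.95 with 1 added to the signal and 0.47 with 64 added. Leaving out any of the 8 arrays gave values between 0.71 and 0.82. These describe the values on which the gene was chosen and are no support for the difference. The array has no other Cdkn2b probe set, so the difference has no check from a different part of the transcript.

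**Figure D1:**
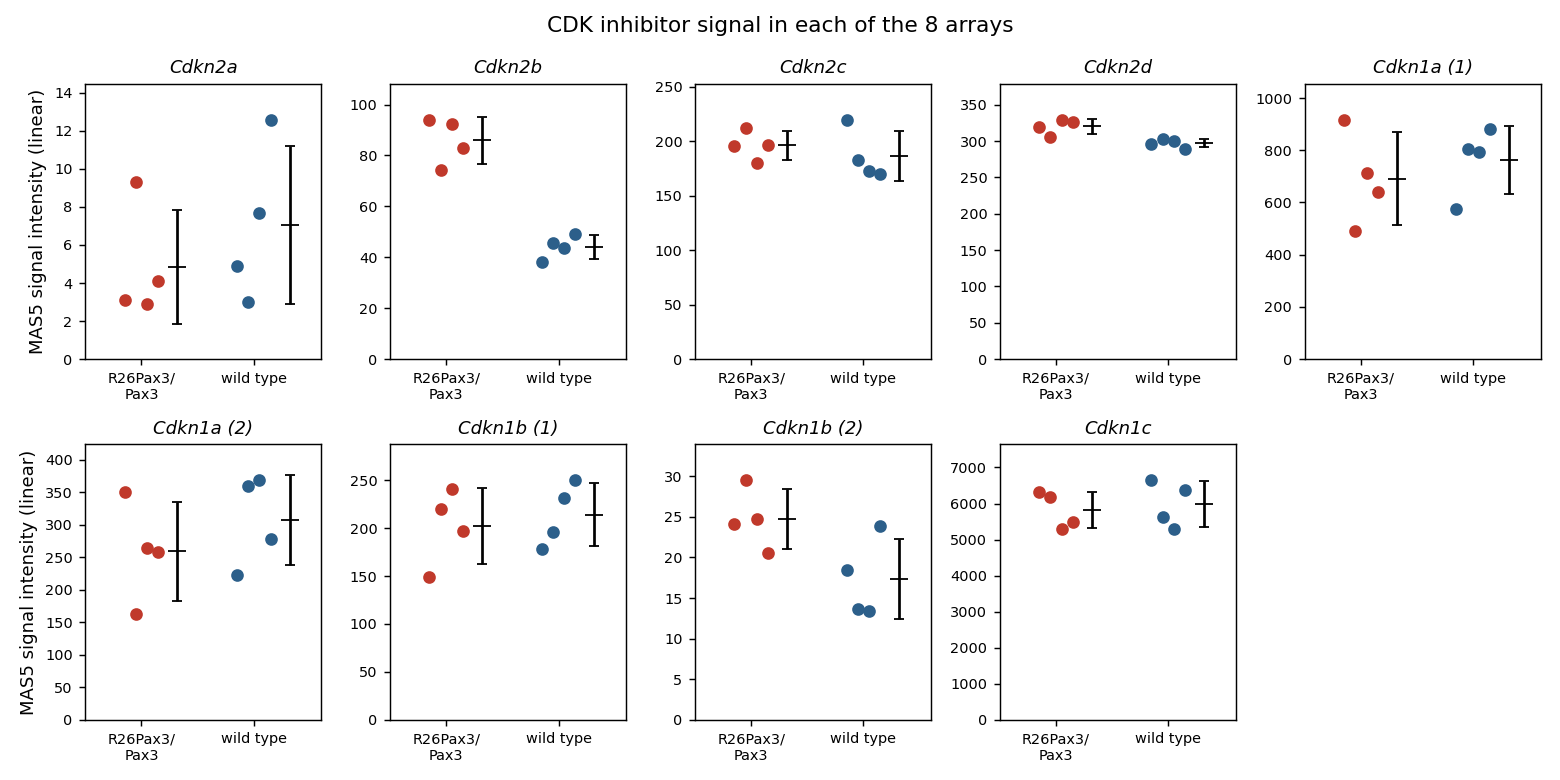
MAS5 signal intensity (linear axis from 0) of each CDK inhibitor probe set, with 1 point per array, R26Pax3/Pax3 in red and wild type in blue, and black bars for mean ± SD (n = 4 each). Numbers in brackets rank the probe sets of a gene by brightness. Cdkn2b, from 74.2 to 94.1 in mutant and from 38.1 to 49.2 in wild type arrays, and Cdkn2d are the panels without overlap. Of all probe sets tested, 2.73% did not overlap.

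Cdkn2a, the neighbour of Cdkn2b and the source of the Ink4a and Arf proteins, was not measurable. Its probe set 1450140_a_at read 3.1, 9.3, 2.9 and 4.1 in mutant and 4.9, 3.0, 7.7 and 12.6 in wild type replicates. Every array read it below its own median, and the probe set did not pass the filter on low signals. No fold is given, and no statement can be made on whether Cdkn2a moved with Cdkn2b.

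Cdkn2d, another INK4 inhibitor of CDK4 and CDK6, differed little. On the log2 scale its difference was 0.047 within the first 4 arrays deposited and 0.15 within the last 4. It read 319, 306, 330 and 326 in mutant replicates 1, 3, 4 and 7, against 296, 303, 301 and 290 in wild type replicates 2, 6, 8 and 11. All 4 mutant arrays lay above wild type, by a margin of a few units between mutant replicate 3 and wild type replicate 6. The means were 320 ± 10.4 and 297.5 ± 5.96, so that the mutant was 1.08 times the wild type, and the log2 fold change was 0.10 (SE 0.0785, unadjusted 95% interval -0.07 to 0.27, limma adjusted p = 1.00). Cdkn2c, the remaining INK4 inhibitor, read 196, 212, 180 and 196 in mutant and 220, 183, 172 and 170 in wild type replicates. The groups overlapped, with wild type replicate 2 the highest of all 8 arrays and wild type replicate 6 above mutant replicate 4, and the log2 fold change was 0.07 (SE 0.106, unadjusted 95% interval -0.16 to 0.30, limma adjusted p = 1.00).

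None of the CIP/KIP inhibitors passed the test. All 4 of their probe sets above the filter had log2 fold changes below 0, a sign that turned for Cdkn1b and Cdkn1c when certain single arrays were left out. Cdkn1a, which encodes the p21 inhibitor induced by p53, read 918, 490, 714 and 642 in mutant and 575, 805, 793 and 880 in wild type replicates on its brighter probe set 1424638_at. The lowest reading was that of mutant replicate 3 and the highest that of mutant replicate 1, so the mutant range spanned the wild type range. The means were 691 ± 178 and 763 ± 131, with a log2 fold change of -0.16 (SE 0.174, unadjusted 95% interval -0.54 to 0.22, limma adjusted p = 1.00). The dimmer probe set 1421679_a_at read 259 ± 76.4 in mutant and 307 ± 69.7 in wild type, a log2 fold change of -0.25 (SE 0.206; adjusted p = 1.00 in limma). The order of arrays was similar on both probe sets (Pearson r = 0.88 over 8 arrays after the genotype means were subtracted).

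Cdkn1b, the p27 inhibitor of cells leaving the cycle, read 149, 220, 241 and 197 in mutant and 178.5, 196, 232 and 250 in wild type replicates on probe set 1434045_at. The groups overlapped, with a log2 fold change of -0.09 (SE 0.148, unadjusted 95% interval -0.41 to 0.24, limma adjusted p = 1.00). Its other probe set 1419497_at read between 20.6 and 29.5 in mutant and between 13.4 and 23.9 in wild type arrays. Every array read it below its own median, so it checks nothing. Cdkn1c, the imprinted p57 inhibitor, gave a strong signal of 6328, 6168, 5307 and 5486 in mutant and 6645, 5625, 5299 and 6377 in wild type replicates. High and low arrays occurred in both genotypes, and the log2 fold change was -0.04 (SE 0.0880, unadjusted 95% interval -0.23 to 0.15, limma adjusted p = 1.00). The difference of Cdkn1c was 0.19 within the first 4 arrays deposited and -0.27 within the last 4, each of which held 2 arrays of each genotype.

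The D cyclins were read by 13 probe sets, of which 12 passed the filter and 0 passed the test. Ccnd1, the D cyclin most tied to growth factor signals, had log2 fold changes of -0.01, -0.01 and 0.08 on its 3 probe sets (limma adjusted p = 1.00 each). The brightest, 1448698_at, read 818, 897.5, 661 and 773 in mutant and 836, 719, 739 and 861 in wild type replicates. Mutant and wild type arrays were interleaved, and the unadjusted 95% interval was -0.23 to 0.22. Ccnd3 read 1298, 1265, 1186 and 981 in mutant and 1552, 1026, 1176.5 and 1341 in wild type replicates on its brightest probe set 1415907_at, a log2 fold change of -0.10 (SE 0.126, unadjusted 95% interval -0.37 to 0.18, limma adjusted p = 1.00). Probe set 1444323_at of Ccnd3 had 0.16 (SE 0.183). The third, 1438805_at, was below the array median on all 8 arrays.

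Ccnd2, a D cyclin of proliferating progenitors, had 7 probe sets, and they fell into different patterns. The brightest pair differed little. Probe set 1434745_at read 4152 ± 247 in mutant and 4123 ± 297 in wild type, a log2 fold change of 0.01 (SE 0.0735, unadjusted 95% interval -0.15 to 0.17, and -0.0046 with quantile normalization), and 1416122_at read 4192 ± 215 and 3982 ± 126, a log2 fold change of 0.07 (SE 0.0631; adjusted p = 1.00 in limma for both). Probe set 1448229_s_at read 1561, 1691, 1347 and 1234.5 in mutant and 900.0, 1099, 1131 and 1247 in wild type replicates. Only mutant replicate 7 lay below a wild type array, replicate 11. The means were 1458 ± 206 and 1094 ± 144, so that the mutant was 1.33 times the wild type, and the log2 fold change was 0.41 (SE 0.117, unadjusted 95% interval 0.15 to 0.66, unadjusted p = 0.00467 and limma adjusted p = 0.786).

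A further Ccnd2 probe set, 1416123_at, moved with 1448229_s_at from array to array. It read 341, 425.5, 326 and 231 in mutant and 185, 261, 242 and 351.5 in wild type replicates, a log2 fold change of 0.33 (SE 0.193, unadjusted 95% interval -0.09 to 0.76, limma adjusted p = 1.00). After the genotype means were subtracted, this pair had r = 0.94 over the 8 arrays, while the other 20 pairs of Ccnd2 probe sets lay between -0.57 and 0.66. The pair was singled out after its values were seen, and the correlation is a description. The other 5 probe sets of Ccnd2 had log2 fold changes between -0.07 and 0.07, so a higher level of Ccnd2 as a whole was not measured. In the naming of these arrays, the ending s_at marks a probe set whose probes can match several transcripts, and which transcripts were read here was not tested.

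**Figure D2:**
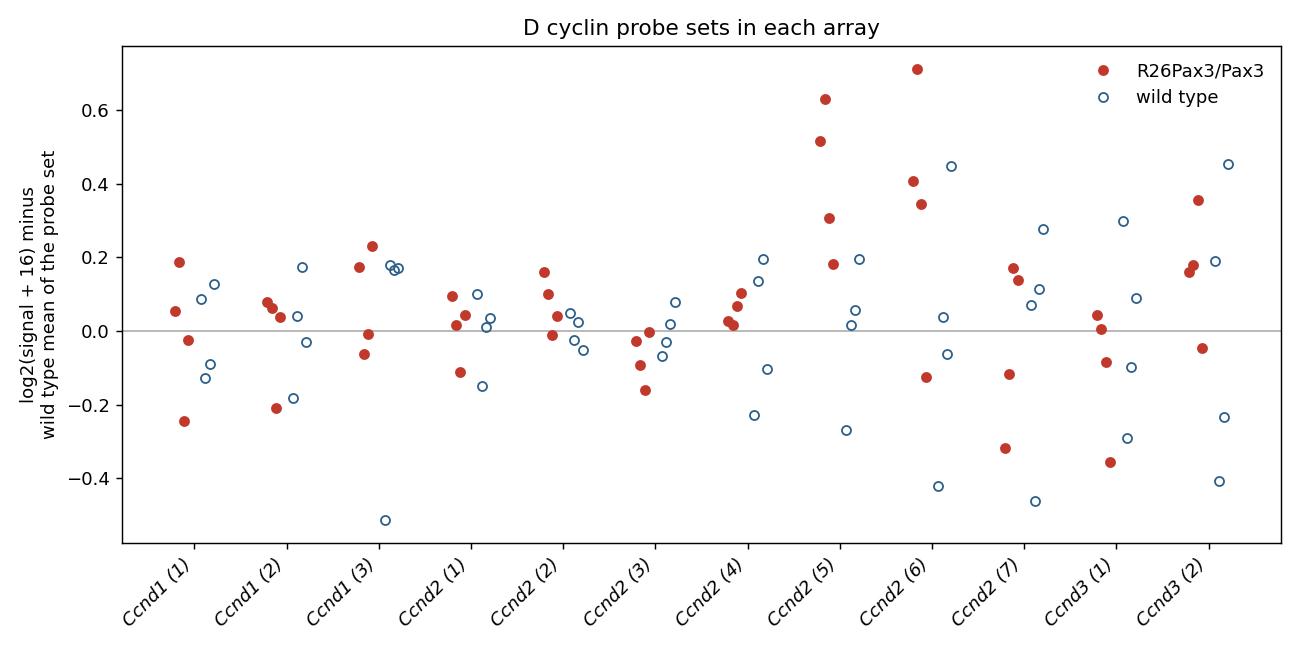
Each array's log2(signal + 16) minus the wild type mean of the same probe set, for the 12 D cyclin probe sets above the filter, with R26Pax3/Pax3 as filled red and wild type as open blue points. Numbers in brackets rank the probe sets of a gene by brightness. Ccnd2 (5), 1448229_s_at, has the largest difference at 0.41 and Ccnd2 (6), 1416123_at, follows at 0.33, while the brighter Ccnd2 (1) and (2) are at 0.01 and 0.07.

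Without Cdkn2b, 18 of the 21 remaining probe sets passed the filter, 9 of them above and 9 below a log2 fold change of 0, where 50.3% of all probe sets tested lay above. Their median was 0.00, as was that of all 27021 probe sets tested. At an unadjusted p under 0.05 there was 1 member, 1448229_s_at of Ccnd2, where 4.86% of all probe sets tested passed. Besides Cdkn2b, groups that did not overlap were found for 1 member, Cdkn2d, where the share over all probe sets tested was 2.73%. Both counts are near the background and are no result about the set. The unadjusted 95% interval held 0 for 17 of the 18.

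**Figure D3:**
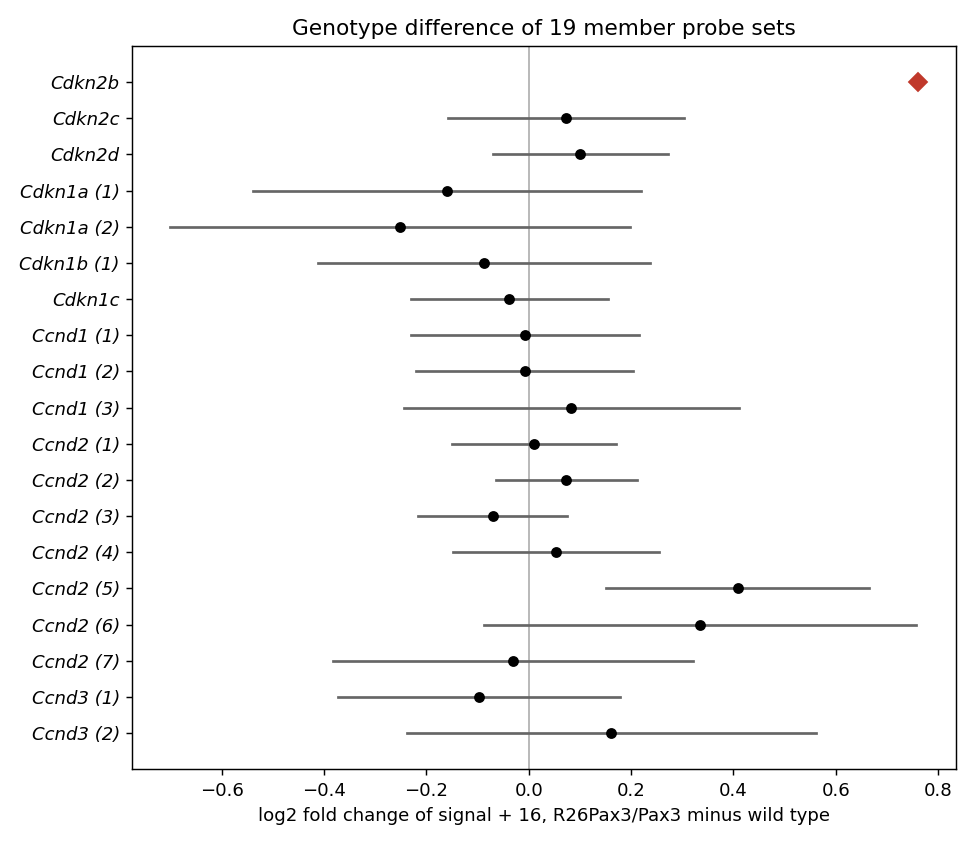
Log2 fold change of signal + 16, R26Pax3/Pax3 minus wild type, for the 19 member probe sets above the filter, with unadjusted 95% intervals from limma (n = 4 each). Cdkn2b (red diamond, 0.76) has no interval because it was chosen for this difference. The other points lie between -0.25 and 0.41, and the interval of 1 probe set, Ccnd2 (5), does not hold 0.

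Cdkn2b and Cdkn1a varied together within the genotypes although their genotype differences had opposite signs. After the genotype means were subtracted, Cdkn2b and the brighter Cdkn1a probe set had Pearson r = 0.95 and Spearman rho = 0.95 over the 8 arrays, the highest of 21 member probe sets, whose r ranged from -0.81 to 0.95. Mutant replicate 3 and wild type replicate 2 were the lowest arrays of their genotype for Cdkn2b and for both Cdkn1a probe sets. Without these 2 arrays r was 0.80 on the brighter Cdkn1a probe set and -0.01 on the dimmer, against 0.76 on the dimmer with all 8, so on the dimmer probe set the relation rested on those arrays. The arrays share their scaling, the pair was picked as the highest of many, and no p is given.

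**Figure D4:**
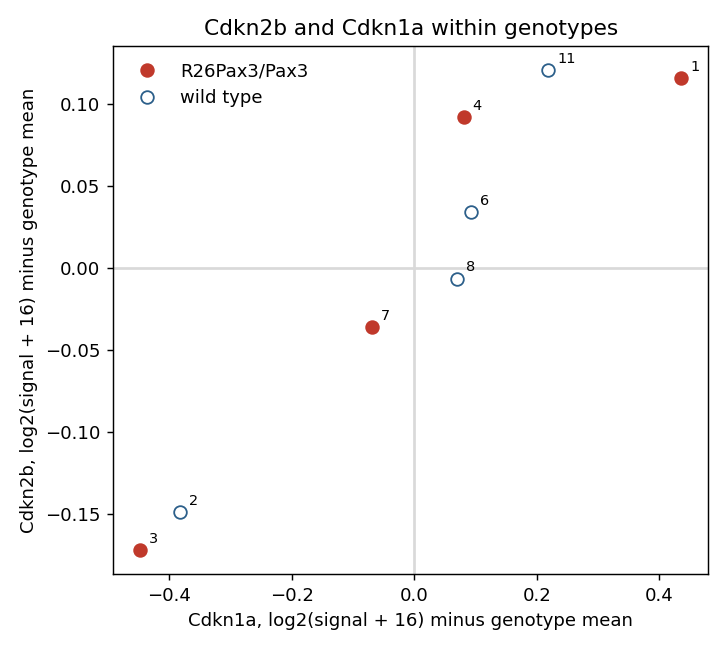
Log2(signal + 16) of Cdkn2b (vertical) against the brighter Cdkn1a probe set (horizontal), each minus its genotype mean, with 1 point per array labelled by replicate number, R26Pax3/Pax3 as filled red and wild type as open blue points. The points rise together (r = 0.95), with mutant replicate 3 and wild type replicate 2 at the low end.

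Cdkn2b was chosen for separating the genotypes, so genes most like it over the 8 arrays would tend to separate them too. That they do is no result. The highest Pearson correlations of log2 values were with Hbegf, a ligand of the EGF receptor (r = 0.97), the immediate early gene Ier3 (0.95), Pafah1b1, a regulator of dynein (0.95), the nuclear import receptor Ipo8 (0.95) and Pax3 (0.94). Mutant and wild type arrays did not overlap for any of the 5, where 2.73% of all probe sets tested did not overlap. The choice of Cdkn2b favours such genes. After subtraction of the genotype means a different set came first, with Btbd10 (r = 0.98), Zfp871 (0.97), Cwf19l1 (0.97), Pdzd11 (0.96) and Mrps21 (0.96), whose genotype differences lay between -0.16 and 0.09. These are descriptions over 8 arrays, drawn from 12339 named genes.

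The machinery on which the inhibitors and D cyclins act showed no called gene. Of 24 probe sets for the 11 G1 kinases and E and A cyclins, 10 were above and 14 below 0, with a median log2 fold change of -0.03 and 0 past an unadjusted p under 0.05. The smallest p-values were those of Ccna1, Cdc25a, the phosphatase that activates CDK2, and Mnat1, a subunit of the CDK-activating kinase. On its probe set with the smallest p, Cdc25a read 243.5 ± 42.3 in mutant and 287.5 ± 49.1 in wild type (log2 fold change -0.23, limma adjusted p = 1.00), but the brighter one read 577 ± 39.4 and 574 ± 40.7 (0.01) and the dimmest had -0.07. Mnat1 read 242 ± 15.6 and 218 ± 32.5 (0.15, limma adjusted p = 1.00). Ccna1 read 27.2 ± 19.1 and 44.5 ± 17.2, too dim for a size.

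Among 25 probe sets of the 13 pocket proteins, E2F and DP factors, 11 were above and 14 below 0, with a median of -0.02. The probe set of E2f1 with the smallest p, 1431875_a_at, read 132 ± 5.97 in mutant and 108.5 ± 12.5 in wild type without overlap, a log2 fold change of 0.25 (unadjusted p = 0.0387, limma adjusted p = 1.00), but the other E2f1 probe set had 0.03. E2f5 had -0.41 on 1 probe set and -0.02 on each of its other probe sets. E2f2 had 0.19 on 1 probe set and -0.18 on the other, which every array read below its own median. Of 35 probe sets for 17 E2F-driven S phase genes, 18 were above and 17 below 0, with a median of 0.00 and 0 past an unadjusted p under 0.05. Mcm4, a subunit of the replicative helicase, read 1131 ± 91.7 in mutant and 1022 ± 13.5 in wild type on 1 probe set (log2 fold change 0.14, limma adjusted p = 1.00) and had 0.01 on the other. Mcm2, of the same helicase, had -0.12 on 1 probe set and -0.05 on the brighter one. The helicase activator Cdc45 had 0.29 on a dim probe set (50.1 ± 1.98 in mutant and 40.1 ± 18.2 in wild type) and 0.05 on the brighter one.

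Genes known to act upstream of the inhibitors gave no call either. Of 36 probe sets for 17 TGF-beta and Myc regulators of Cdkn2b, 19 were above and 17 below 0, with a median of 0.01, and 2 had an unadjusted p under 0.05, both of Tgfb2 (4.86% of all probe sets tested passed that threshold). Tgfb2, a ligand made in the shelves, read 547 ± 30.2 in mutant and 470 ± 30.7 in wild type on 1423250_a_at without overlap, a log2 fold change of 0.21 (unadjusted p = 0.0235, limma adjusted p = 0.992). Its other 3 probe sets had 0.24, 0.16 and 0.09 with overlap. Max, the partner of Myc, read 252 ± 17.2 and 193 ± 77.8 (0.43, limma adjusted p = 1.00), and Tgfbr1, a TGF-beta receptor, had 0.33, 0.19 and -0.02 on its probe sets.

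Of 17 probe sets for 12 p53 response genes, 11 were above and 6 below 0, with a median of 0.03. Pmaip1, an inducer of cell death known as Noxa, read 66.7 ± 22.5 in mutant and 40.3 ± 10.2 in wild type with overlap (log2 fold change 0.53, unadjusted p = 0.0258, limma adjusted p = 0.995). Phlda3 had 0.17, and Mdm2 had -0.12 and 0.01 on its 2 probe sets. Of 28 probe sets for 15 Polycomb and other repressors of the Ink4 locus, 20 were above and 8 below 0, with a median of 0.04 and 0 past an unadjusted p under 0.05. Rnf2, a ubiquitin ligase of Polycomb complex 1, had 0.18, 0.01 and 0.11 on its probe sets from the brightest to the dimmest. Ezh2, the methyltransferase of Polycomb complex 2, had 0.16, and Twist1 had -0.21 (limma adjusted p = 1.00 each).

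Of 35 probe sets for 13 ubiquitin ligase and kinase regulators of p27 and the D cyclins, 20 were above and 15 below 0, with a median of 0.01 and 0 past an unadjusted p under 0.05. Ambra1, an adaptor for D cyclin degradation, had -0.24 on 1 probe set (160 ± 21.5 and 191 ± 24.3) and 0.06 and -0.01 on the others, Dtl had 0.39 on its probe set with the smallest p and between -0.20 and 0.06 on the others, and Fbxo4 had 0.26.

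Of the 5 listed neighbours of the Ink4 locus, 2 were tested, Mtap and Elavl2. All 7 of their tested probe sets had log2 fold changes above 0, where 50.3% of all probe sets tested lay above. These 7 belong to only 2 genes. Their median was 0.23, and 0 passed an unadjusted p under 0.05. Mtap, a purine salvage enzyme encoded next to Cdkn2a, read 503 ± 36.6 in mutant and 430 ± 83.2 in wild type (log2 fold change 0.23, limma adjusted p = 1.00), with 0.08, 0.10 and 0.15 on its other probe sets. Elavl2, further along chromosome 4, had 0.74, 0.63 and 0.26 on its 3 probe sets (limma adjusted p = 1.00 each). The first read 191 ± 64.2 in mutant and 131 ± 113 in wild type (SD, n = 4 each). Its wild type arrays ran from 38.4 to 290, and the highest of all 8 arrays was wild type replicate 6. This probe set had a difference of 0.11 in the first 4 arrays deposited and of 1.37 in the last 4.

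Markers of other cell types that shelves can hold also differed in sum between arrays. The summed signal of 16 epithelial markers lay between 9287 and 12661 in mutant and between 8278 and 10257 in wild type arrays. Of the 16 markers, 13 had the higher mean in the mutant. By array, the sums were 12661, 9287, 11735 and 12619 in mutant replicates 1, 3, 4 and 7. They were 10257, 8278, 9718 and 8861 in wild type replicates 2, 6, 8 and 11. The 7 measured osteoblast markers all had lower means in the mutant, with sums from 7294 to 8543 in mutant and from 8402 to 10927 in wild type. All 8 neuronal markers had higher means in the mutant, with sums from 1046 to 1771 in mutant and from 494 to 1870 in wild type arrays. Within the first 4 arrays deposited, these sums were 1422 and 1758 in mutant and 1870 and 1079 in wild type. Within the last 4 they were 1771 and 1046 in mutant and 494 and 522 in wild type. All 9 tested muscle markers had lower means in the mutant, with sums from 853 to 6225 in mutant and from 2765 to 7084 in wild type arrays. Of 6 tested cartilage markers, 5 had lower means in the mutant, with sums from 754 to 1808 in mutant and from 1222 to 2477 in wild type arrays, and Comp and Matn3 lay below the array median on all 8 arrays. The sums of mutant and wild type arrays overlapped in each of these lists. They also overlapped for the 7 endothelial markers (1186 to 1367 in mutant, 1219 to 1304 in wild type). The same held for the 7 of blood and macrophages (974 to 1495 in mutant, 1052 to 1322 in wild type). It held too for the 12 of palatal mesenchyme (10816 to 11629 in mutant, 10738 to 11677 in wild type). None of these markers was called, and their part in the difference of Cdkn2b was not tested.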

How the data were processed

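Total RNA (6 µg per sample) from palatal shelves was hybridised to Affymetrix arrays. The authors deposited linear signal intensities, and the submitters' processing notes name MAS5; its version and a genome build are not given in the sources used here. The mean after trimming 2% at each end was 150 on all 8 arrays, so a change shared by most genes would not show. Of 45037 probe sets besides 64 controls, 34945 had 1 gene symbol in the platform annotation, 932 several and 9160 none. No further normalization was applied. Probe sets above the 40th percentile of mean signal were compared with limma 3.58.1 (R 4.3.3; lmFit, eBayes with trend, no covariates) on log2(signal + 16), and the procedure was tested on simulated data. Array number limits the precision. The members and gene lists were chosen with earlier results of these data known. Named genes were all members, Pax3, any called list gene or the 3 of smallest p per list, and the 5 most like Cdkn2b. Alternatives were pseudocounts of 1 and 64, no filter or a 60th percentile, quantile normalization, no trend, the order of deposition and leaving out each array.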

Additional observations from a re-analysis of the deposited data

Results flagged for a closer look

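In 44 groups of 4 arrays, 2 values stood apart from the other 3 by Dixon's test, where chance flags about 1 group in 20. Both were single low arrays of Ccnd1. On probe set 1417420_at, mutant replicate 4 read 671, and the next mutant array read 801. On probe set 1417419_at, wild type replicate 2 read 286, and the next wild type array read 467.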

How the results depend on the processing

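Of the members other than Cdkn2b, which was not tested, none was called in limma under any planned setting, and leaving out arrays gave 0 calls among them throughout. The count over all probe sets was 4 in every setting with all arrays and lay between 4 and 9 when 1 array was left out, 9 without mutant replicate 3. Member probe sets other than Cdkn2b without overlap numbered 1, against 2.73% of all probe sets, and 1 to 2 when 1 array was left out, with 2 without mutant replicate 7 or wild type replicate 11, where 1448229_s_at of Ccnd2 joined Cdkn2d against shares of 4.94% and 4.95% over all probe sets. List probe sets past the threshold stayed at 0. Of the 18 tested member probe sets, 12 changed sign somewhere, and no value of turned sign had a size above 0.23. Values that kept their sign could be larger, such as -0.57 for Cdkn1a 1421679_a_at within the first 4 arrays deposited. Ccnd3 1415907_at had -0.41 within the last 4. With quantile normalization Ccnd2 1434745_at had -0.0046. Within the first 4 arrays deposited the signs turned for Cdkn1c (0.19), Ccnd1 1448698_at (0.23) and 1417419_at (-0.12), Ccnd2 1455956_x_at (-0.14) and Ccnd3 1415907_at (0.22). Within the last 4 they turned for Cdkn2c (-0.039), Cdkn1a 1421679_a_at (0.067), Cdkn1b 1434045_at (0.041), Ccnd1 1417420_at (0.021), Ccnd2 1434745_at (-0.10) and Ccnd3 1444323_at (-0.17). Leaving out 1 array gave ranges across 0 for Cdkn1b 1434045_at (-0.17 to 0.040), Cdkn1c (-0.095 to 0.014), Ccnd1 1448698_at (-0.072 to 0.072), 1417420_at (-0.068 to 0.060) and 1417419_at (-0.088 to 0.14), Ccnd2 1434745_at (-0.039 to 0.051), 1455956_x_at (-0.022 to 0.12) and 1416124_at (-0.19 to 0.064) and Ccnd3 1415907_at (-0.19 to 0.0020). The cause was not tested. Cdkn2d stayed between 0.09 and 0.12 when 1 array was left out. Cdkn2b, as a description only, differed by 0.72 in the first 4 arrays deposited and by 0.80 in the last 4. No paired analysis was possible because the labels do not say which samples share a litter, and the genotypes share no replicate numbers. Signal near background limits Cdkn2a, 1419497_at of Cdkn1b and 1438805_at of Ccnd3.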
